A study of Mus musculus with 8 samples.

Results

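Lysosomes are acidic organelles in which hydrolases break down proteins, sugar chains, lipids and worn cell parts, and autophagy is the route that wraps such parts in a double membrane and delivers them there. A proton pump keeps the lumen acidic, membrane glycoproteins line it, and a core of kinase, lipid-binding and ubiquitin-like conjugation proteins builds the autophagosome. Most cell types express these genes, and fat, cartilage and bone cells use them in handling stored lipid and in turning over matrix. The genes described here are 38 lysosomal hydrolase, lysosomal membrane and autophagy genes, chosen by name, of 19057 genes with a named probe. Each was read from its probe of highest mean, and 36 of the 38 reached a deposited log2 level of 6 on at least 2 of 8 arrays and entered the tests.

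The series addressed the reprogramming of cells already committed to a lineage, with Illumina arrays of mesenchymal stem cells (MSCs) from the bone marrow of adult C57BL/6J mice and of cells made from them, 8 in all. Reprogrammed adipocytes, chondrocytes and osteocytes had 1 array each, all titled p1. The differentiated lineages also had 1 array each, with the titles d7 for adipocytes, d28 for chondrocytes and d21 for osteocytes, and undifferentiated MSCs had 2, titled p4 and d0. The labels do not say what d and p stand for or how cells were reprogrammed, and name no culture or animal for an array. A p-value thus measures only the spread between these arrays, here between lineages and between the 2 MSC arrays.

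Levels are the authors' deposited log2 values, and differences are on the scale log2(level in linear units + 16), which understates differences of dim genes. Every array had the same number of probes at a level of 6 or more, 12610 of 45281. Arrays with a p number in the title, which are the reprogrammed cells and MSC p4, numbered 6815 to 7652 probes at 0 each. The arrays with a d number, the differentiated cells and MSC d0, numbered 4317 to 5204. Each of these 2 array sets thus holds 4 arrays, reprogrammed cells fall in one and differentiated cells in the other, and the MSC arrays are the only link between them. Of the lineage markers, 7 of 9 adipocyte markers reached a level of 6 on differentiated adipocytes, against 2 to 4 on the other arrays. On differentiated chondrocytes 5 of 10 chondrocyte markers did, against 2 or 3 on the other arrays, although Acan, the main cartilage proteoglycan, stayed under 6 on every array. Of 8 osteoblast and osteocyte markers 3 did on differentiated osteocytes, no more than on reprogrammed chondrocytes and MSC p4, against 5 on differentiated chondrocytes and 1 on the other 4 arrays, with Dmp1 and Sost, which mark osteocytes, under 6 on every array. In RNA of whole cultures, fewer cells of a type and less RNA per cell cannot be told apart.

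Differentiated chondrocytes carried the highest level of 15 of the 36 genes, more than any other array, and reprogrammed adipocytes the lowest level of 17. Differentiated osteocytes had the highest level of 8 genes, differentiated adipocytes and reprogrammed osteocytes of 5 each, and reprogrammed adipocytes of 0. Differentiated adipocytes had the lowest level of 11. By role, 6 of 8 glycosidases were lowest on differentiated adipocytes and 5 of 8 were highest on differentiated chondrocytes, whereas all 4 of the Atg8 family and cargo receptor genes were lowest on reprogrammed adipocytes. The colour map of the 38 genes by array shows these columns.

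**Figure D1:**
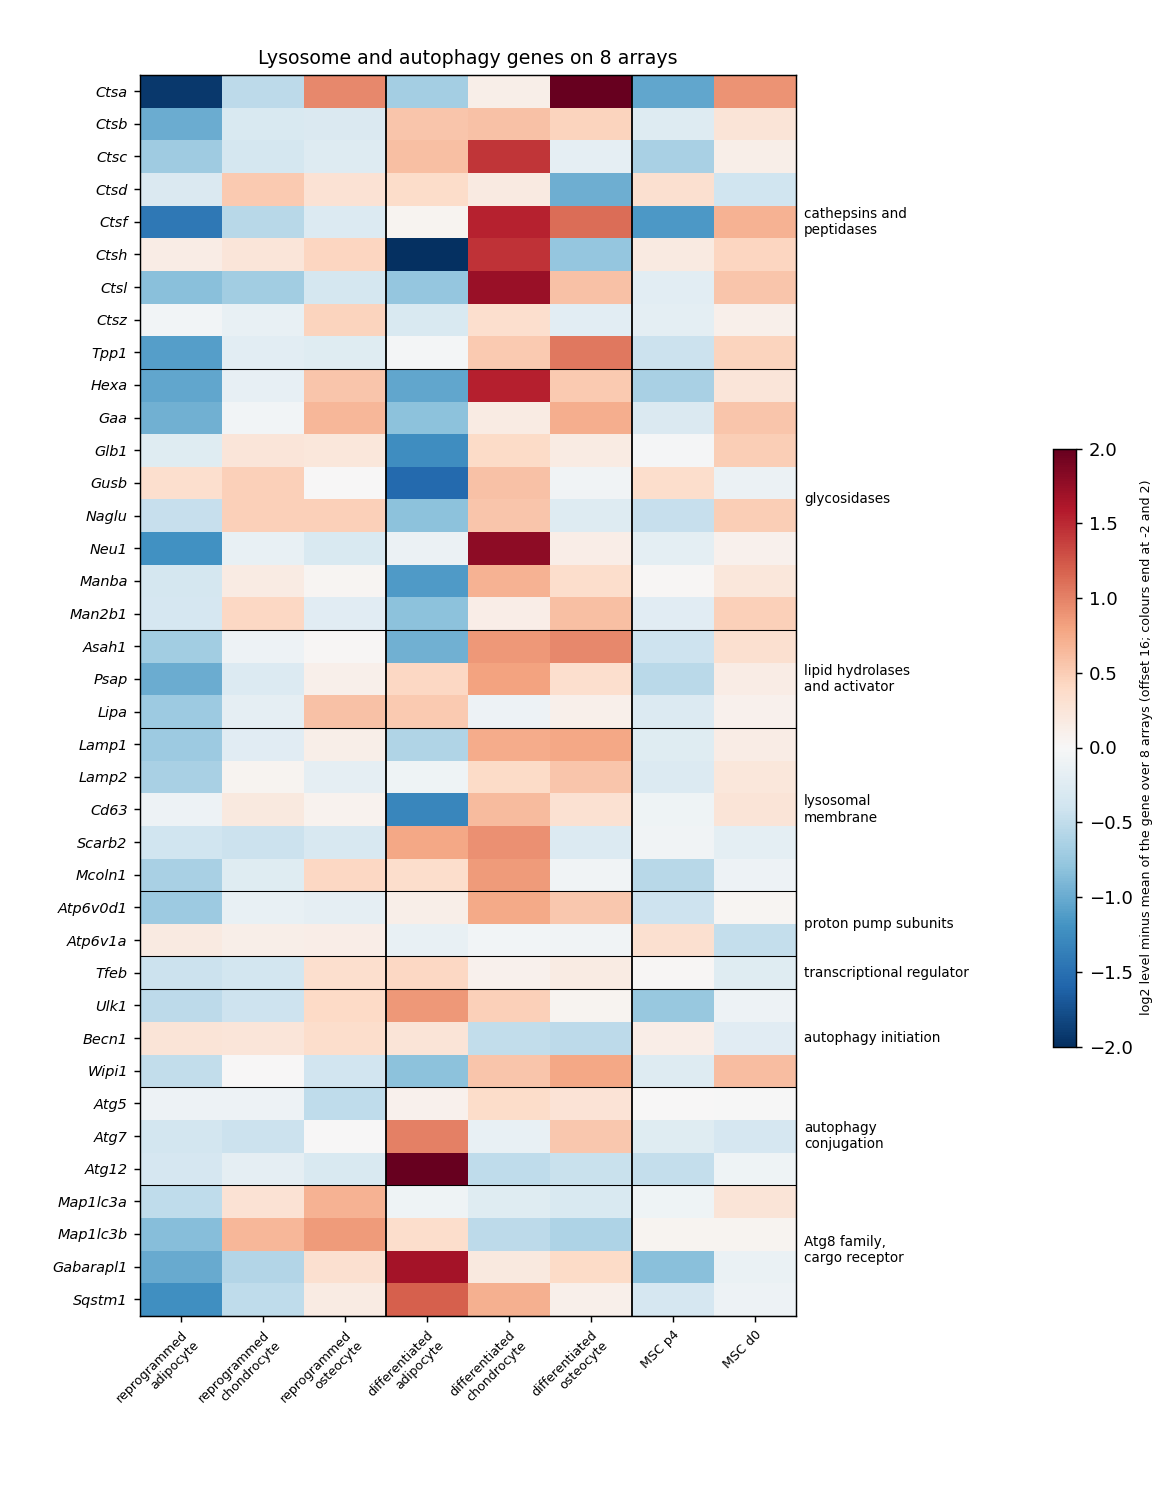
Levels of the 38 genes on 8 arrays. Each row is a gene, ordered by role, each column is 1 array, and the colour is the log2 level (offset 16) minus the gene's mean over the 8 arrays, ending at -2 and 2; reprogrammed adipocytes hold the lowest level of 17 of 36 genes and differentiated chondrocytes the highest of 15.

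The 2 genes outside the tests were dim. Tfeb, the transcription factor best known for switching on lysosomal genes, read 3.63, 3.77 and 5.01 on reprogrammed adipocytes, chondrocytes and osteocytes, 5.13, 4.60 and 4.74 on the differentiated ones and 4.50 and 4.01 on MSC p4 and MSC d0, so it was under 6 on all 8 arrays. Ctsc, a dipeptidyl peptidase that activates granule proteases of immune cells, reached 6 on 1 array only by its probe of highest mean, at 6.30 on differentiated chondrocytes. It read 2.49, 3.54 and 3.76 on the reprogrammed arrays in the same lineage order, against 5.22 and 3.91 on differentiated adipocytes and osteocytes, and 2.67 and 4.47 on MSC p4 and MSC d0. Another probe of Ctsc read 5.76, 8.03 and 1.19 on differentiated adipocytes, chondrocytes and osteocytes, against 0 and 2.86 on MSC p4 and MSC d0. The remaining probe read 6.15 on differentiated chondrocytes and under 6 elsewhere.

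Tfeb and its relatives bind the letters TCACGTG, the heart of the element found before many lysosomal genes, so the promoter windows of the genes are shown as background to their levels. RefSeq (GRCm38.p6) gave a window of 250 bases before to 50 after the start for 32 of the 38. TCACGTG, on either strand, lay in 10 of these 32 (31.3%), against 4.29% of 27025 genes in the table and 17 of 92 (18.5%) of the other lysosome and autophagy genes. The shorter CACGTG, which TCACGTG contains, lay in 13 of 32 (40.6%), against 8.09% of all genes. The genes with TCACGTG were Atg7, Atp6v0d1, Atp6v1a, Ctsa, Ctsd, Gaa, Glb1, Lamp1, Mcoln1 and Naglu. Windows that held CACGTG alone were those of Atg5, Ctsf and Ctsl. The 150 bases before the start are printed for 5 genes with the letters, picked to show 1, 2 and 4 copies, and for Sqstm1, whose window has none. Capitals mark CACGTG.
Lamp1, chr8:13159011-13159160, plus strand: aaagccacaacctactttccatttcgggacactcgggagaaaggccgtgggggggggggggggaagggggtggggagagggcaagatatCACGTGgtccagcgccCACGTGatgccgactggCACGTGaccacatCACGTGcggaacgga
Mcoln1, chr8:3500369-3500518, plus strand: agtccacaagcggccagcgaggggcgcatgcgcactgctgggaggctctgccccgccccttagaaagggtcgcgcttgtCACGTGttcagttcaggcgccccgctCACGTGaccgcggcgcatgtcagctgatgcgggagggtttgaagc
Ctsd, chr7:142387828-142387977, minus strand: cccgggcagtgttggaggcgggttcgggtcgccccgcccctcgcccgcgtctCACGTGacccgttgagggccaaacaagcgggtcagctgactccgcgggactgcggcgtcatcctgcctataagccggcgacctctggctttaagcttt
Ctsa, chr2:164833623-164833772, plus strand: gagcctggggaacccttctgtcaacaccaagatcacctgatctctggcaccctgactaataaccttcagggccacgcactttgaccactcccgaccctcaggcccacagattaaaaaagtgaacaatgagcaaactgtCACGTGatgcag
Atg7, chr6:114670946-114671095, plus strand: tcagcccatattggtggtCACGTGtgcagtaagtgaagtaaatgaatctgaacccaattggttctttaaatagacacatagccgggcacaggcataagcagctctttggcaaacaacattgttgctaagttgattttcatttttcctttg
Sqstm1, chr11:50210821-50210970, minus strand: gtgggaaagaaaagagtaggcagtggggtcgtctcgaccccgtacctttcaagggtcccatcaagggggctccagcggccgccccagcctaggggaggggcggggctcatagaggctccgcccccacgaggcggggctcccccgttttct

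Lamp1 has 4 copies within these bases and Mcoln1 has 2. The starts of the Lamp1 copies lie at -61, -45, -28 and -15 from the gene's start, and those of Mcoln1 at -71 and -45. The median difference of reprogrammed minus differentiated cells was -0.34 for the 10 with it, 6 lower and 4 higher, and -0.55 for the 20 tested without it, 16 lower and 4 higher. Both are a description, and a match of letters is not a bound site.

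What reprogramming did to a committed lineage is the question of reprogrammed against differentiated cells. None of the 36 genes passed the test, limma over all 8 arrays with Benjamini-Hochberg adjustment over 8308 genes at 0.05, against 54 genes in all (0.650%), 21 higher (0.253%) and 33 lower (0.397%). Without adjustment, 8 of the 36 were lower in reprogrammed cells at a p under 0.05 and 0 higher, against 11.7% and 10.9% of all genes. The median difference of the 36 was -0.54, with 25 lower and 11 higher, and that of all genes was -0.04, with 52.4% lower and 47.6% higher. Arrays of the reprogrammed and differentiated cells did not overlap for 8 genes that were lower and 1 that was higher, against 16.2% and 13.7% of all genes. In each of the 3 lineages 15 of 36 genes were lower, against 24.8% of all genes, and 2 were higher, against 1748 of all 8308 genes.

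The array sets stand beside these counts. MSC p4 against MSC d0, arrays of the same cell type label in different sets, gave the 37 genes at level on at least 1 array a median of -0.45, with 30 lower and 7 higher. Over all 9033 genes the median was -0.03, with 4730 lower and 4293 higher. By a log2 difference of at least 1, Ctsa at -1.94 and Ctsf, at least 2.71-fold lower, stood apart (8.05% of all genes), and 0 genes were higher (6.38%). When the array set entered the fit as a block, the median of reprogrammed minus differentiated cells was 0.05, with 17 lower and 19 higher (50.9% and 49.1% of all genes), and 12 of 36 differences turned sign, against 32.2% of all genes. No gene of the 8308 passed the test in that fit, and 0 of 36 reached an unadjusted p under 0.05, against 1.05% of all genes in the higher and 0.999% in the lower direction. The direction of the list as a whole therefore cannot be told apart from the array set. The blocked fit links the sets through 1 MSC array each, MSC p4 and MSC d0. Each blocked difference thus rests on those single arrays and is less precise than the unblocked one. Its missing calls do not show that levels were the same.

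**Figure D2:**
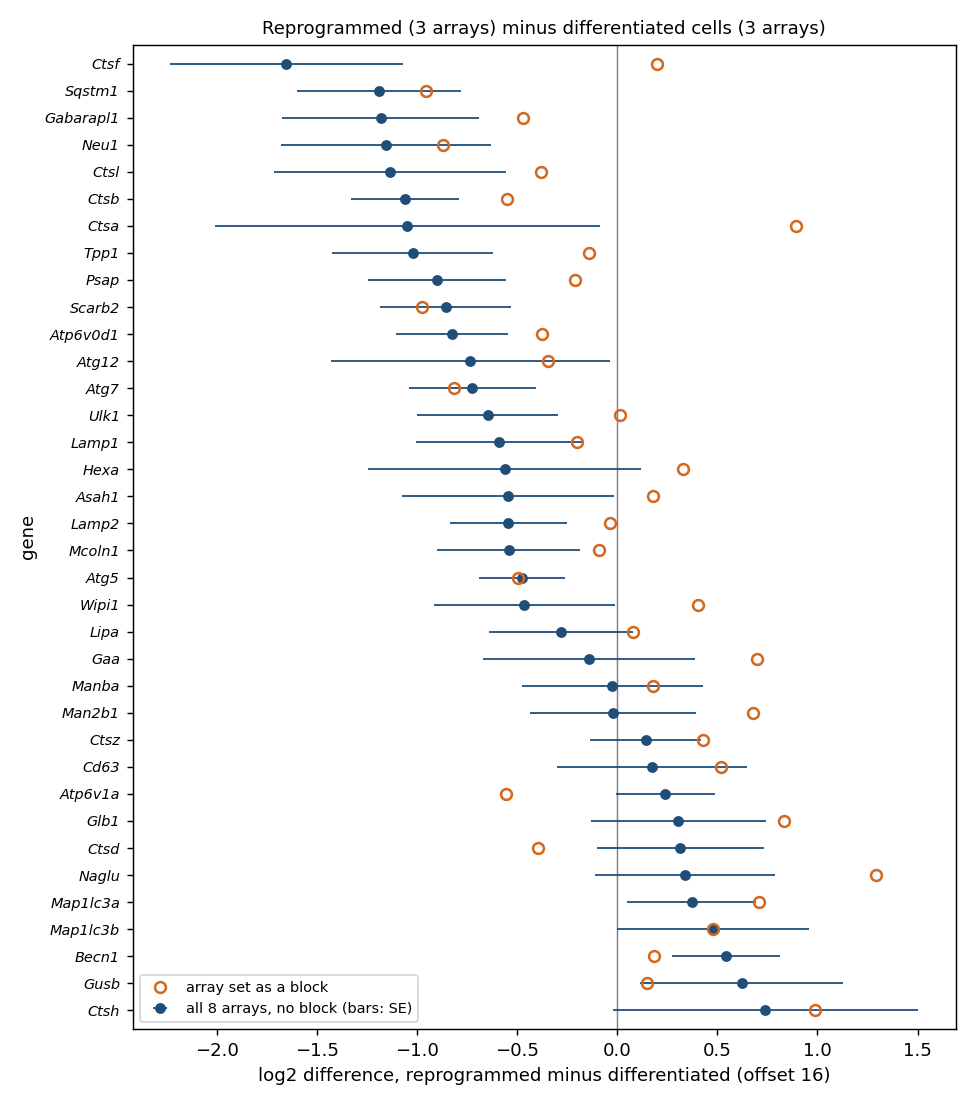
Difference of each of the 36 genes tested, reprogrammed (3 arrays) minus differentiated cells (3 arrays), on the log2 scale with an offset of 16. Filled points with bars are the limma estimate and its standard error without a block and open circles the estimate with the array set as a block; 25 filled points lie below 0, and the open circles have a median of 0.05.

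Among the peptidases, Ctsb had the smallest adjusted p of the list. This abundant cysteine protease of lysosomes read 12.88, 13.57 and 13.59 on reprogrammed adipocytes, chondrocytes and osteocytes, against 14.43, 14.47 and 14.32 on the differentiated ones, and 13.62 and 14.13 on MSC p4 and MSC d0. All 3 reprogrammed arrays lay below all 3 differentiated arrays, and reprogrammed adipocytes were the lowest. The difference was -1.06 (SE 0.27, limma's adjusted p = 0.0929), and -0.55 with the array set as a block.

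Ctsf, another cysteine protease, had the largest difference, -1.65 (SE 0.58, limma's adjusted p = 0.153). Its levels were 5.08, 6.23 and 6.57 on the reprogrammed adipocytes, chondrocytes and osteocytes, against 6.94, 8.53 and 8.10 on the differentiated ones, with no overlap. The MSC arrays were as far apart, at 5.46 and 7.65 on p4 and d0, and in the blocked fit the difference turned to 0.20. Tpp1, which takes tripeptides off the ends of proteins, read 8.33, 9.25 and 9.23 on reprogrammed arrays in the same order, against 9.43, 9.99 and 10.53 on differentiated arrays. They did not overlap, and the difference of -1.02 (limma's adjusted p = 0.185) shrank to -0.14 with the block.

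The other peptidases tested overlapped between the states. Ctsl, a cysteine protease, read 3.87, 4.13 and 4.75 on reprogrammed adipocytes, chondrocytes and osteocytes, against 3.97, 7.36 and 6.04 on differentiated ones, so only the differentiated chondrocyte and osteocyte arrays reached 6. Its difference was -1.14 (SE 0.58, limma's adjusted p = 0.287), or -0.38 with the block. Ctsc, which was too dim to be tested, did not overlap by its probe of highest mean. Another of its probes did, at 1.86 on reprogrammed adipocytes and 1.19 on differentiated osteocytes, both under 6. Ctsa, a carboxypeptidase that also shields Neu1 and Glb1 from breakdown, spread widely within each state, with 7.32, 8.80 and 10.32 on reprogrammed adipocytes, chondrocytes and osteocytes, 8.65, 9.46 and 11.59 on differentiated ones and 8.27 and 10.26 on MSC p4 and MSC d0. Osteocytes were the highest array of both states and adipocytes the lowest. A second probe of Ctsa had 9.72 on reprogrammed and 9.25 on differentiated osteocytes, against 9.42 on MSC d0, and none of the other 4 probes was highest on differentiated osteocytes. Ctsz differed by 0.14, and Ctsd, the main aspartic protease of lysosomes, was read by 1 dim probe that ranged from 4.06 to 6.24.

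Prosaposin (Psap) is the precursor of small proteins that help enzymes degrade sphingolipids. It read 12.21, 12.94 and 13.31 on reprogrammed adipocytes, chondrocytes and osteocytes, against 13.62, 14.01 and 13.53 on differentiated ones and 12.66 and 13.35 on MSC p4 and MSC d0. Reprogrammed and differentiated arrays did not overlap, with a difference of -0.90 (SE 0.34, limma's adjusted p = 0.177) and of -0.21 in the blocked fit. A second probe of Psap gave -0.60 and did overlap, at 12.93 on reprogrammed osteocytes and 12.86 on differentiated adipocytes. Asah1, the acid ceramidase, and Lipa, the lysosomal lipase for cholesteryl esters and triglycerides, overlapped between the states, with differences of -0.55 and -0.28. Both had probes that disagreed in sign, as did Man2b1, Manba, Map1lc3a and Wipi1, whereas the probes of the other 12 of 18 genes with several at level did not.

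Of the 5 membrane genes, Scarb2, the receptor that carries glucocerebrosidase to lysosomes, was lower without overlap. It read 7.33, 7.31 and 7.42 on reprogrammed adipocytes, chondrocytes and osteocytes, against 8.59, 8.74 and 7.48 on differentiated ones. On this probe the osteocyte arrays were nearly level, so the difference of -0.86 (SE 0.33, limma's adjusted p = 0.176) lay in the other lineages. In the blocked fit it was -0.98. A second probe of Scarb2 gave -0.56 with overlap. There the osteocyte arrays were the farthest apart, at 5.89 on reprogrammed and 7.11 on differentiated ones. Lamp1 and Lamp2, the main glycoproteins of the lysosomal membrane, differed by -0.59 and -0.54, and Mcoln1, a calcium channel of lysosomes, by -0.54. Cd63, a tetraspanin of late endosomes, differed by 0.17, and all 4 overlapped between the states.

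The proton pump genes went opposite ways. Atp6v0d1, a subunit of the membrane part, read 10.93, 11.51 and 11.47 on reprogrammed adipocytes, chondrocytes and osteocytes, against 11.77, 12.42 and 12.20 on differentiated ones. On this probe no arrays overlapped, and the difference was -0.83 (SE 0.28, limma's adjusted p = 0.145), or -0.37 with the block. All its other probes were lower on average but overlapped. The brightest of them read 11.70 on reprogrammed osteocytes and 11.65 on differentiated adipocytes. Atp6v1a, the catalytic subunit, was the 1 gene higher without overlap, at 10.04, 9.97 and 9.99 on reprogrammed against 9.70, 9.79 and 9.78 on differentiated arrays. That difference of 0.24 was smaller than the gap between MSC p4 and MSC d0, at 10.18 and 9.38, and turned to -0.55 with the block.

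Of the glycosidases, which break down the sugar chains of stored and matrix molecules, Neu1 alone did not overlap. This sialidase read 8.14, 9.25 and 9.09 on reprogrammed adipocytes, chondrocytes and osteocytes, against 9.28, 11.22 and 9.54 on differentiated ones, with a difference of -1.16 (limma's adjusted p = 0.241). The chondrocyte pair was farthest apart. The other 7 (Hexa, Gaa, Glb1, Gusb, Naglu, Manba and Man2b1) lay between -0.56 for Hexa and 0.62 for Gusb, and the median of all 8 was -0.02. In the blocked fit Neu1 was at -0.87 and the other 7 were higher, and the median of all 8 was 0.50.

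Among autophagy genes, Sqstm1 and Gabarapl1 had the largest differences. Sqstm1, the receptor that ties ubiquitin-tagged cargo to the autophagosome, read 10.64, 11.36 and 12.03 on reprogrammed adipocytes, chondrocytes and osteocytes, against 13.07, 12.58 and 11.97 on differentiated ones and 11.54 and 11.77 on MSC p4 and MSC d0. Adipocytes were the lowest reprogrammed and the highest differentiated array, and the osteocyte arrays were nearly level, so the states overlapped. The difference was -1.19 (SE 0.41, limma's adjusted p = 0.147), and -0.95 with the block.

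Gabarapl1, an Atg8-family protein that is joined to lipid on the growing membrane, read 9.46, 9.89 and 10.80 on reprogrammed adipocytes, chondrocytes and osteocytes, against 12.17, 10.69 and 10.88 on differentiated ones. Adipocytes were again the lowest reprogrammed and the highest differentiated array, and the states overlapped because reprogrammed osteocytes lay above differentiated chondrocytes. Its difference was -1.18 (SE 0.49, limma's adjusted p = 0.209), or -0.47 with the block. The LC3 genes Map1lc3a and Map1lc3b, of the same family, were higher on average, by 0.37 and 0.48, with overlap, but a second probe of Map1lc3a gave -0.34. Atg5, which is joined to Atg12 to form the lipidating enzyme, was lower without overlap at a difference of -0.48. Atg7, the activating enzyme of both conjugations, differed by -0.72. Atg12 itself differed by -0.74, with the arrays overlapping. With the array set as a block Atg5, Atg7 and Atg12 differed by -0.50, -0.82 and -0.35.

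The genes that start autophagy did not share a direction. The kinase Ulk1 differed by -0.65 and Wipi1, which reads the lipid mark of the forming membrane, by -0.47, and both turned sign in the blocked fit. The other probes of Wipi1 gave 0.25 and 0.19. Becn1, part of the lipid kinase that writes that mark, differed by 0.54 (limma's adjusted p = 0.279). It read 9.69, 9.67 and 9.77 on reprogrammed adipocytes, chondrocytes and osteocytes, against 9.68, 8.90 and 8.88 on differentiated ones, and the adipocyte arrays were level.

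Single lineages have 1 array per state, so their differences have no error of their own and were counted at a log2 difference of at least 1. In adipocytes, reprogrammed minus differentiated, 4 of 37 genes were higher and 16 lower by this size, against 16.6% and 16.7% of all 9033 genes. The lowest differences were Gabarapl1 at -2.68, Atg12 at -2.67, Sqstm1 at -2.42 and Ctsb at -1.55, and Ctsc was under 6 on both arrays. The 4 higher were Ctsh at 2.24, Gusb at 1.89, Cd63 at 1.19 and Glb1 at 1.0. In chondrocytes 1 gene was higher, Map1lc3b at 1.18, and 10 were lower, against 8.51% and 10.8% of all genes. Ctsl was at least 2.25-fold lower, and Ctsf at -2.09, Neu1 at -1.94 and Hexa at -1.72 followed. In osteocytes 3 genes were higher, Map1lc3b at 1.46, Ctsh at 1.20 and Ctsd at 1.26, which was under a level of 6 on both arrays. There 4 were lower, Ctsf at -1.39, Tpp1 at -1.29, Ctsa at -1.26 and Wipi1 at -1.16, against 7.93% and 11.0%. The other probes of Wipi1 read 9.66 and 8.27 on reprogrammed osteocytes, against 9.69 and 8.11 on differentiated osteocytes. A second probe of Ctsa read 9.72 on reprogrammed and 9.25 on differentiated osteocytes. Medians of the 37 genes were -0.57 in adipocytes, -0.55 in chondrocytes and -0.07 in osteocytes.

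**Figure D3:**
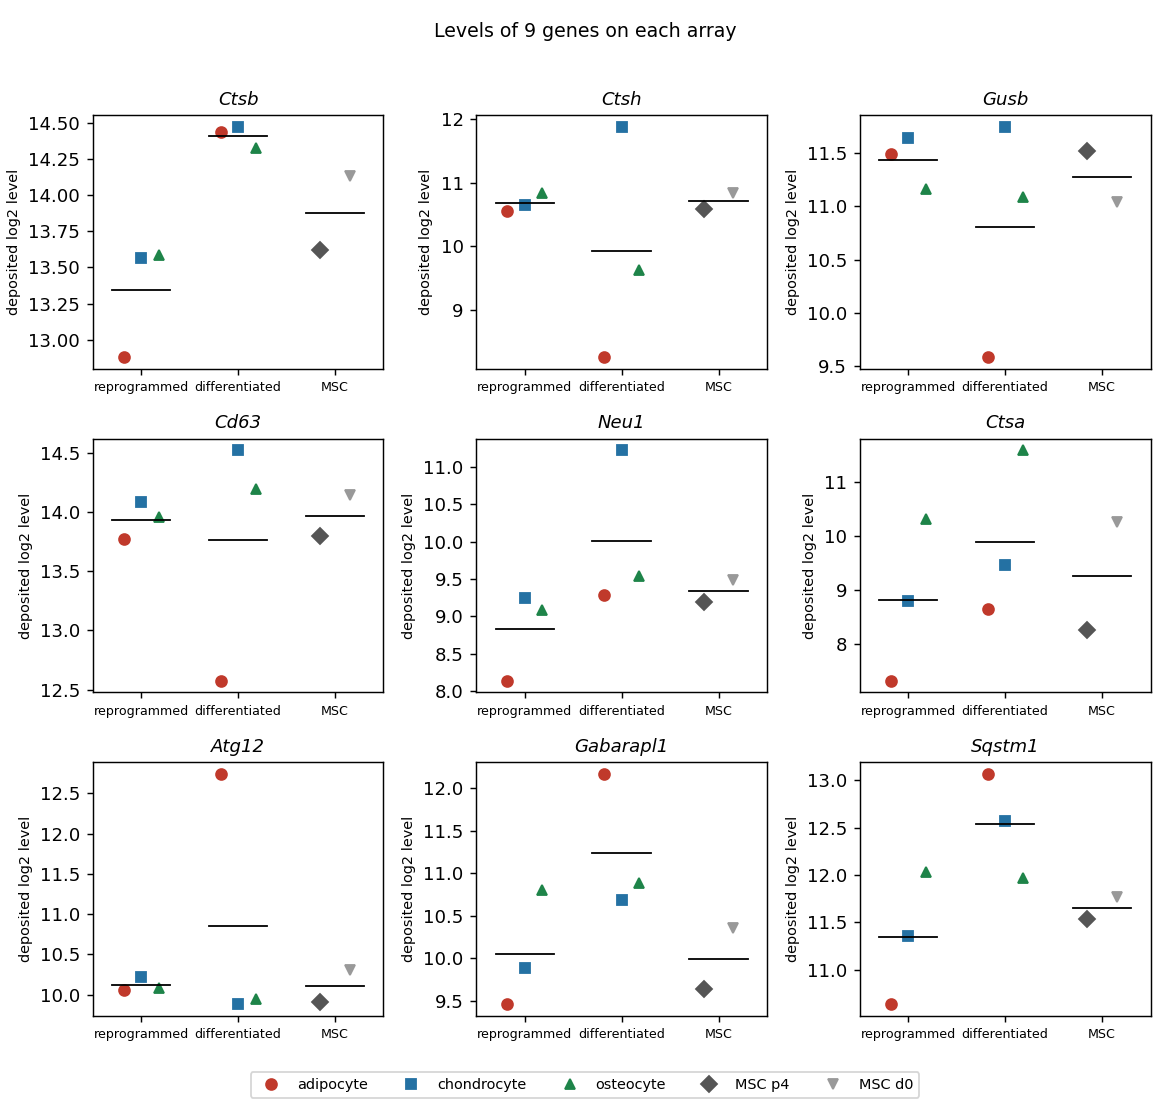
Deposited log2 levels of 9 genes on each array, by state. Points are single arrays, colours and shapes give the lineage or the MSC array, and horizontal lines are the mean of a state; axes do not start at 0. Ctsb has no overlap between reprogrammed and differentiated arrays, and Atg12, Gabarapl1 and Sqstm1 are highest on differentiated adipocytes.

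Differentiated cells were compared with MSCs to see what differentiation did. By limma 0 of 36 genes passed, against 5 of all 8308 (0.0602%), all 5 of them higher, and 0 of 36 had an unadjusted p under 0.05, against 4.63% higher and 5.74% lower. The median was 0.32, with 21 higher and 15 lower (49.7% and 50.3% of all genes), against -0.0035 over all genes, and 0.08 with the array set as a block. No arrays overlapped for 9 genes that were higher and 1, Map1lc3a, that was lower, against 11.8% and 12.3% of all genes. The second probe of Map1lc3a gave 0.29 here, against -0.30 by the first. The 9 higher genes were Ctsb, Psap, Mcoln1, Atp6v0d1, Ulk1, Atg5, Atg7, Gabarapl1 and Sqstm1. Differences of these 9 lay between 0.24 for Atg5 and 1.24 for Gabarapl1, with adjusted p of at least 0.490. For Atp6v0d1 the dimmest probe did overlap, at 10.07 on differentiated adipocytes and 10.10 on MSC d0. The next dimmest overlapped as well, at 10.26 and 10.30 on the same arrays.

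Lineages differed in which genes stood out, and differentiated adipocytes had both directions. Against both MSC arrays, 4 of 37 genes were higher by a log2 of at least 1 and 5 lower, against 9.27% and 10.3% of 9033 genes. All 4 higher genes belong to autophagy. Atg12 read 12.74 on differentiated adipocytes, against 9.91 on MSC p4 and 10.30 on MSC d0, a 6.15-fold difference, and the other 5 arrays lay between 9.88 and 10.22. Gabarapl1 was 4.45-fold higher, Sqstm1 2.66-fold and Atg7 2.46-fold. Atg12, Gabarapl1, Sqstm1 and Atg7 were each read by 1 probe.

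The 5 lower genes on differentiated adipocytes were lysosomal. Ctsh, a cysteine aminopeptidase, read 8.26 there, against 10.59 on MSC p4 and 10.84 on MSC d0, and was 5.26-fold lower. Gusb, the beta-glucuronidase, was 3.20-fold lower, Glb1, the beta-galactosidase, 2.79-fold, Cd63 2.62-fold and Manba, the beta-mannosidase, 2.38-fold. Both probes of Ctsh, all 4 of Gusb and all 3 of Cd63 were lowest on this array. Against MSC d0 alone, the MSC array of the same set, 13 genes were lower (15.9% of all genes), Ctsl among them under 6 on both arrays, and 4 higher (12.2%), and the 8 glycosidases had a median of -1.33. Of these, 7 were at least 2-fold lower, the exception being Neu1 at -0.20. Autophagy and hydrolase genes did not split fully on this array. Wipi1, of autophagy, read 8.92 there, against 10.38 on MSC d0, and the lysosomal Ctsb, Psap and Lipa lay above MSC d0. The difference between autophagy and hydrolase genes within this array has no replicate.

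**Figure D4:**
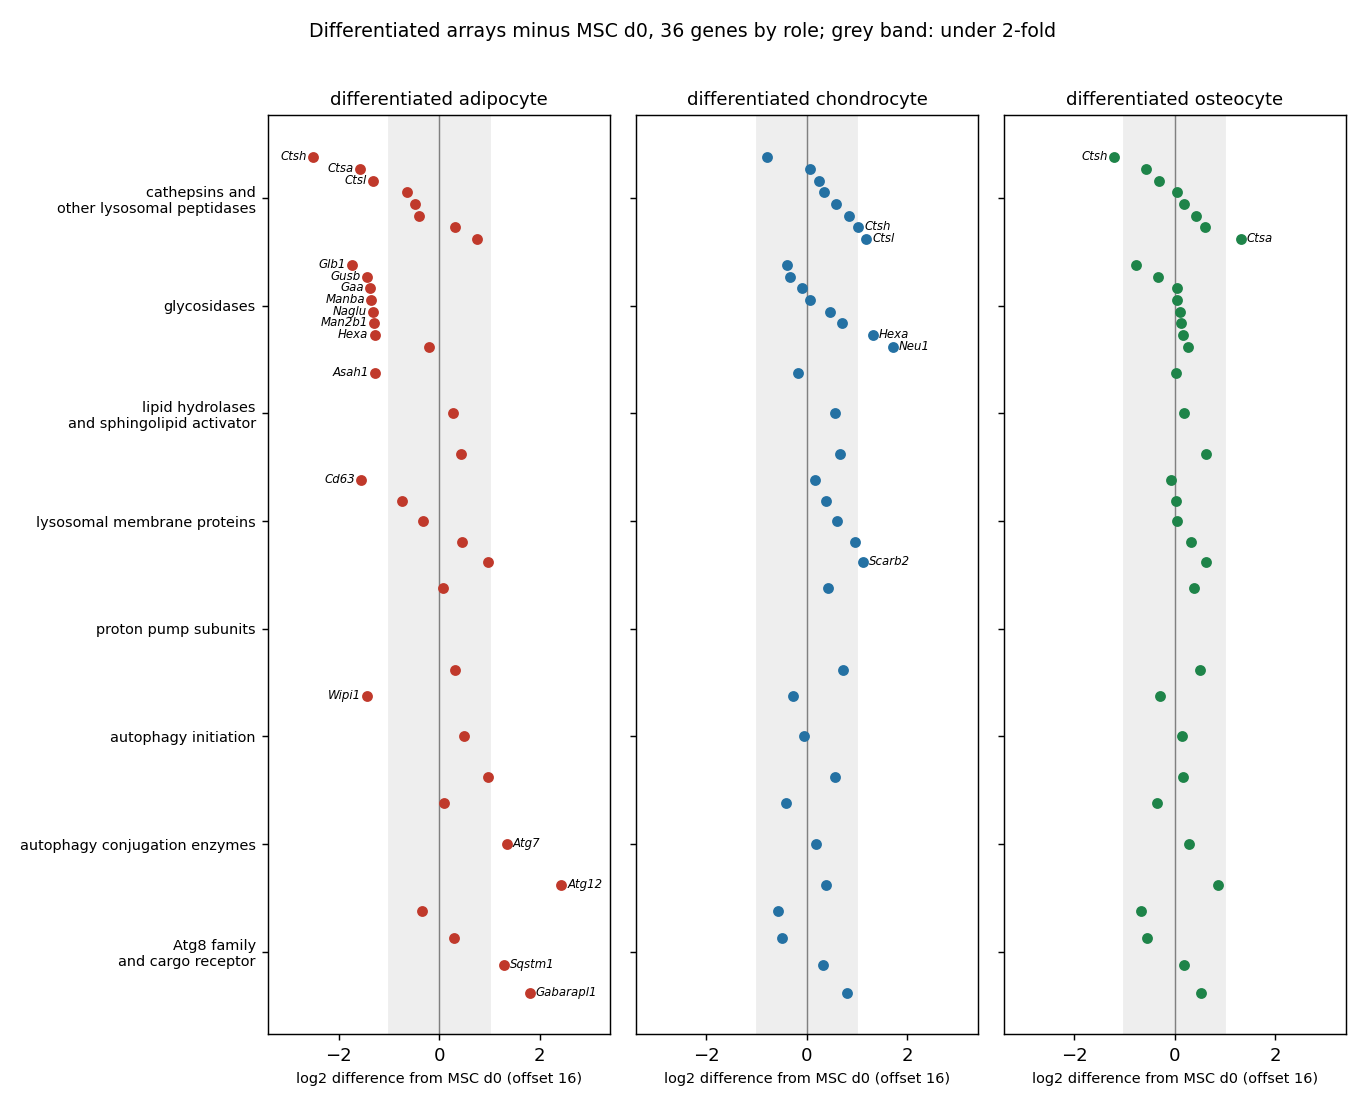
Log2 difference (offset 16) of each of the 36 genes between a differentiated array and MSC d0, by role, with 1 panel per lineage. Each point is a gene, the grey band marks differences under 2-fold, and genes outside it are named; on differentiated adipocytes 7 of 8 glycosidases lie below the band and Atg12, Gabarapl1, Atg7 and Sqstm1 above it.

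On differentiated chondrocytes 33 of 37 genes were higher than the mean of the MSC arrays, with a median of 0.54, against 0.01 over all genes. Against both MSC arrays 5 were higher by a log2 of at least 1 and 0 lower, against 6.73% and 3.10% of all genes. Neu1 read 11.22, against 9.20 on MSC p4 and 9.49 on MSC d0, and was 3.60-fold higher. Hexa, a subunit of beta-hexosaminidase, read 11.80, against 9.57 and 10.48 on the same MSC arrays, a 3.37-fold difference. Against MSC d0 alone the median was 0.38, with 27 of 37 higher, against 4481 of all 9033 genes. By that size 6 were higher (9.37%), Scarb2 being the added one, and 0 lower (6.97%). Ctsh was 2.22-fold higher than the MSC mean, and 2 genes that were under 6 on both MSC arrays had only a bound, at least 2.25-fold for the protease Ctsl and at least 1.19-fold for Ctsc. The bound for Ctsc is by its probe of highest mean, and another of its probes read 8.03 on differentiated chondrocytes.

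Macrophages are cells rich in lysosomes, and their markers were at level on this array more than on others. Of 23 such markers with a probe, 8 reached a level of 6 on differentiated chondrocytes, against 1 to 3 on each other array, and their linear levels summed to 2012, against 486 to 906. Laptm5 read 8.14, Ctss 7.17, Lyz1 9.19 and C1qc 6.09 there. On the same array Ptprc, Adgre1 and Csf1r, of the same list, read 3.39, 4.86 and 5.86, and Fcgr1 was listed at 0. Of 12 osteoclast markers 3 reached 6 there, against 2 or 3 on the other arrays, and Atp6v0d2 was listed at 0. Their linear levels summed to 4274 there, against 684 to 1806 elsewhere, of which Ctsk, a matrix-degrading cathepsin of osteoclasts, read 11.42. The part of these cells in the chondrocyte values was not tested. Without differentiated chondrocytes the median of the 36 genes was 0.05 for differentiated cells minus MSCs and -0.34 for reprogrammed minus differentiated cells.

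Differentiated osteocytes had 1 gene higher against both MSC arrays by this size, Ctsa at 4.88-fold, and 0 lower, against 4.45% and 2.48% of all genes. The median of the 37 was 0.27, and 0.13 against MSC d0, the array of the same set. Against MSC d0 alone Ctsh was lower at -1.20 (4.66% of all genes) and Ctsa higher at 1.32 (5.63%). By its second-brightest probe Ctsa read 9.25 on differentiated osteocytes, below 9.42 on MSC d0.

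Reprogrammed cells were compared with MSCs, the undifferentiated cells of the series. By limma 0 of 36 genes passed and 0 had an unadjusted p under 0.05, against 0 of all 8308 genes (0%) and, unadjusted, 0.120% higher and 0.205% lower. The median was -0.17, with 13 higher and 23 lower (44.8% and 55.2% of all genes), against -0.04 over all genes, and 0.12 with the array set as a block, where 17 of 36 turned sign (36.8% of all genes). No arrays overlapped for 1 gene that was higher, Becn1, and for 4 that were lower, Ctsb, Ctsl, Scarb2 and Atg5, against 4.86% and 8.73%. Ctsl was under 6 on all 5 of these arrays, so its order there is one of values below level. The second-brightest probes of Becn1, Scarb2 and Atg5 did overlap between these states. The missing calls do not show that levels were the same: Ctsb differed by -0.53 with a standard error of 0.30.

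By lineage, reprogrammed adipocytes lay below the MSC mean for 34 of 37 genes, against 4671 of all 9033 genes. The median of the 37 was -0.53, against -0.02 over all genes. Of the 37, 1 gene was lower by a log2 of at least 1 against both MSC arrays, Neu1 at -1.16. By this size 0 were higher, against 0.875% lower and 0.144% higher of all genes. Reprogrammed chondrocytes had 0 genes past that size in either direction, against 0.144% higher and 0.0111% lower of all genes, and a median of -0.06. Reprogrammed osteocytes had 0 as well, against 0.819% and 0.443%, and a median of 0.12. Against MSC p4 alone, the MSC array of the same set, the median of reprogrammed adipocytes was -0.29. There 33 of 37 were lower, against 4577 of all 9033 genes. By that size 1 was lower, Neu1 at -1.02 (1.43% of all genes), and 0 higher (0.210%). The median of reprogrammed chondrocytes turned to 0.25, with 30 of 37 higher, against 4547 of all 9033 genes. Past that size there were 0 (1.53% higher and 0.487% lower of all genes). Reprogrammed osteocytes had a median of 0.25 against MSC p4, with 4 genes higher by that size (5.44% of all genes) and 0 lower (4.62%). These were Ctsa at 2.0, Hexa at 1.19, Ulk1 at 1.15 and Gabarapl1 at 1.15.

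The other genes of the same pathways, in 7 lists with 113 genes that had a probe, are given beside the 36. For reprogrammed minus differentiated cells 0 passed the test in any list. Of all 8308 genes 52.4% were lower, and 11.7% were lower with an unadjusted p under 0.05, the shares beside which the lists' counts stand. Of 12 other lysosomal membrane genes tested, 10 were lower and 7 had an unadjusted p under 0.05, led by Ctns, the cystine exporter, at -1.85 (limma's adjusted p = 0.0918) and Entpd4 at -1.46 (adjusted p = 0.0710). Of 13 other proton pump subunits 9 were lower, 5 with an unadjusted p under 0.05, led by Atp6v0b at -1.01 and Atp6v1d at -0.82. Of 23 other autophagy genes 21 were lower, 8 of them by that p, with Wdr45 at -1.24 and Atg13, which acts with Ulk1, at -0.99. Of 17 other hydrolases 13 were lower, 3 by that p, with Dpp7 at -2.10 and Pla2g15 at -1.16.

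The remaining lists were smaller or mixed. Of 11 genes for the sorting of lysosomal enzymes 7 were lower and 1 had an unadjusted p under 0.05, Gnptg at -1.55, while Sort1 at -2.35 rested on differentiated adipocytes, which read 12.61 against 7.08 to 9.14 on the other differentiated arrays. Of 12 genes of the Tfeb family and of nutrient sensing 10 were lower, 2 by that p, with Sesn1 at -1.39 and Ddit4 at -1.31. Tfe3, a relative of Tfeb, was higher without overlap at 0.77 (limma's adjusted p = 0.121), and at 0.12 with the array set as a block. Of 6 other autophagy receptors 5 were lower, 1 of them by that p, with Calcoco1 at -1.13 and Bnip3 at -0.67. In the blocked fit the medians of the 7 lists lay between -0.53 and 0.14.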

How the data were processed

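Total RNA was labelled for Illumina arrays, per the labels' protocols. The authors deposited log2 values for 45281 probes, which were used as they stand. The normalization software is not given in the sources used here, and sorted columns differed by at most 0.0175 above 2, as quantile normalization leaves them. The 16 value columns of a table before normalization carry names that match no label and were not used. Probe symbols came from the platform annotation (34885 probes with 1 symbol, 18 with several, 10378 with none), updated for 34807 probes through Entrez identifiers to RefSeq GRCm38.p6.

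Values were transformed with an offset of 16. Genes at a level of 6 on at least 2 arrays were tested between states with limma 3.58.1 (R 4.3.3, lmFit and eBayes, two-sided), which was tested on simulated data. Single arrays were compared over the 9033 genes that reach 6 anywhere. Where a gene stayed under 6 throughout the dimmer side, its fold is a bound against 6.32, the level of 6 after the offset. All 38 genes are named, with the 2 largest differences of each other list. The 38 genes, the lists and the tests were chosen with earlier results of these data known. Alternatives changed the offset, the filter, the probe rule, the arrays, the block and the variance trend. The number of arrays limits the precision.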

Additional observations from a re-analysis of the deposited data

Results flagged for a closer look

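Ctsh and Map1lc3b differed in opposite directions between lineages, with 1 array per lineage and state, and the difference between lineages was not tested. Ctsh was higher on reprogrammed than on differentiated arrays in adipocytes, at a log2 difference of 2.24, and in osteocytes, at 1.20, and lower in chondrocytes, at -1.21. Its reprogrammed arrays lay between 10.56 and 10.84 and its differentiated arrays between 8.26 and 11.87, so the spread came from the differentiated side. Map1lc3b was lower in adipocytes, at -1.20, and higher in chondrocytes, at 1.18, and in osteocytes, at 1.46. Its reprogrammed arrays lay between 9.07 and 10.79 and its differentiated arrays between 9.31 and 10.30.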

How the results depend on the processing

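No lysosome or autophagy gene passed the test under any alternative. The count of all genes for differentiated minus MSC arrays, 5 as reported, was 2 with no offset, 10 with an offset of 64, 3 with a level of 6 on 1 array, 3 with no filter, 0 with only the arrays compared, 1 with the array set as a block and 10 with an intensity trend. For reprogrammed minus differentiated arrays, 54 as reported, the block left 0. With lineage as a replicate block it was 7 and no gene of the 36 turned direction. Same-lineage deviations correlated at 0.170, 0.0880 and 0.227 for adipocytes, chondrocytes and osteocytes, so the lineages are not treated as pairs, although each array correlated best with its own lineage.

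Leaving out each array gave 1 to 51 genes for differentiated minus MSC and 2 to 209 for reprogrammed minus differentiated arrays, both highest without differentiated adipocytes, and 0 to 0 for reprogrammed minus MSC. The genes called here stayed at 0 to 0, as did the other lists. Their median ranged over 0.05 to 0.54, -0.66 to -0.33 and -0.32 to 0.12. In the blocked fit the median for reprogrammed minus differentiated arrays was 0.047, and Ctsf reversed to 0.196 (limma's adjusted p = 0.9996); for Ctsb, Ctsf, Tpp1, Psap, Scarb2, Atp6v0d1, Gabarapl1 and Sqstm1 the other 135 of 136 values kept direction and side of the threshold. Over the 36 genes the block turned the sign of 12 for reprogrammed minus differentiated, 5 for differentiated minus MSC and 17 for reprogrammed minus MSC arrays. Leaving out 1 array turned up to 4, 12 and 17 in the same order.

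By size, differentiated chondrocytes had 3 genes past a log2 of 1 with an offset of 64, against 5. Differentiated osteocytes had 0 by the mean of probes, against 1. Reprogrammed adipocytes against MSCs had 2 with no offset and 0 with an offset of 64, against 1. The adipocyte pair had 12 with an offset of 64, against 20, the osteocyte pair 4 by the mean of probes, against 7, and MSC p4 minus MSC d0 5 with no offset and 1 by the mean of probes, against 2. The causes were not tested.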
